A study of Homo sapiens with 12 samples.

Results

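Ribosomal protein gene promoters were followed through 9 lists of open chromatin from U2OS cells, a human osteosarcoma line. The genes were chosen by name: protein-coding genes of chromosomes 1–22 and X whose symbols are RPL or RPS with a number and at most 1 letter, together with RPSA, RPLP0, RPLP1 and RPLP2. The rule gave 81 of 19974 protein-coding genes and used no measured value. The strand, and with it the gene start, was available for 64 of the 81 genes and for 15812 of all protein-coding genes. The other 17 were examined at both gene ends and are described separately. A gene start counted as called in a list when a peak of that list came within 1000 bp of it.

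ATAC-seq marks accessible DNA through adapters that the transposase Tn5 inserts there, and 12 samples in 6 groups of 2 were profiled with it. The FOXA2 set holds wild-type U2OS cells, cells with a Flag-tagged full-length FOXA2 construct (FOXA2FL) and cells with FOXA2 lacking its CTD (FOXA2dCTD). The SOX2 set holds a wild type of its own, cells with full-length SOX2 (SOX2FL) and cells with a fusion of SOX2 and the FOXA2 CTD (SOX2FLFOXA2CTD). FOXA2 and SOX2 are pioneer transcription factors, which can bind sites in closed chromatin, and the design asks what they open and whether the CTD matters. The constructs were driven by an inducible Tet-on system, and induction was with doxycycline at 500 ng/ml for 4 days. For wild-type samples the protocol text mentions doxycycline and the treatment label gives none, so whether those cells received it is unclear. The second wild type is labelled with the SOX2 cell line, which leaves unclear whether it is parental U2OS or that line without induction. The FOXA2 set came with a peak list for each of its 6 libraries. For the SOX2 set there was 1 list per group, with entries matched between a pair of inputs, taken here to be both samples of that group. Replicates are labelled as biological, and nothing says whether a construct line is 1 clone.

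Ribosomal protein genes encode the structural proteins of the cytoplasmic ribosome and are transcribed in nearly every growing cell. Their promoters are known for a pyrimidine-rich start, often beginning at a C, which gives the mRNA its 5′ terminal oligopyrimidine (TOP) tract and places it under control of mTOR signalling. Because these promoters are held open in growing cells, the share of them found in a peak list describes how completely that list records constitutive open promoters.

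Among the 64 promoters with a RefSeq window from 250 bases before to 50 after the start (GRCh38.p14), 42 (65.6%) had only C or T at the first 5 transcribed bases, against 4.91% of all 15812 promoters. The first base was C in 46 of 64 members (71.9%) and in 11.3% of all promoters. TCTTT beginning within 10 bases of the start on the gene's strand was present in 16 members (25%) and 2.76% of all promoters. The windows below run from 60 bases before the start to 10 bases from it, with the first 5 transcribed bases in capitals. They show the 3 members with the strongest peaks, the 3 with the weakest, and RPL10L, an intronless copy. For RPL15 a later listed start, 587 bp downstream, is shown as well, because its peaks lay near it.
RPL15, chr3:23916485-23916554 (+): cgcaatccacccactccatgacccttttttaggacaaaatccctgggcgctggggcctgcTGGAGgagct
RPL15 later start, chr3:23917072-23917141 (+): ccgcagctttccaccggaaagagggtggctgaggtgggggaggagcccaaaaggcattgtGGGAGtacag
RPLP0, chr12:120201102-120201171 (-): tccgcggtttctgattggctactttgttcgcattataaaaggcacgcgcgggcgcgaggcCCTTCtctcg
RPS24, chr10:78033803-78033872 (+): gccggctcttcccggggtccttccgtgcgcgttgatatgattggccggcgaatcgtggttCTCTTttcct
RPS18, chr6:33272015-33272084 (+): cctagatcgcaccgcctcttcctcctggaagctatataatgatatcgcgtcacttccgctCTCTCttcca
RPS9, chr19:54200798-54200867 (+): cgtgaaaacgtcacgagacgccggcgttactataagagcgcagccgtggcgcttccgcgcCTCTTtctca
RPL36, chr19:5690235-5690304 (+): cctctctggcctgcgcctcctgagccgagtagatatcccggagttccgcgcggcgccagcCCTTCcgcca
RPL10L, chr14:46651772-46651841 (-): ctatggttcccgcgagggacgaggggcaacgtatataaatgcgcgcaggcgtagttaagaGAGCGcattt

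The pyrimidine start did not follow the mean percentile in these examples. RPS18, RPS9 and RPL36, with the lowest means, carry it, as do RPLP0 and RPS24, with high ones, while neither printed RPL15 start does. The low means of RPS18, RPS9 and RPL36 include lists in which they had no peak. The 42 promoters with a pyrimidine start were called in a median of 8 lists, as were the 22 without. Their median strength, as the mean percentile over the 9 lists described below, was 63.98 with and 57.5 without.

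The lists differed widely in length. The FOXA2 set had 19862 and 25088 peaks in the wild-type lists, 161136 and 57946 in the FOXA2FL lists, and 78820 and 146854 in the FOXA2dCTD lists. For the SOX2 set, 48142 (wild type), 65628 (SOX2FL) and 75544 peaks (SOX2FLFOXA2CTD) remained at a global irreproducible discovery rate (IDR) of at most 0.05. Read depth is unknown. In the FOXA2 set, wild type replicate 2 and FOXA2FL replicate 2 had no mitochondrial peak and lowest −log10 p values of 5.43 and 5.22, whereas its 4 remaining lists held 2 mitochondrial peaks apiece. No label or header names a processing batch, and the lists with mitochondrial peaks were not uniform, since wild type replicate 1 went down to 3.44 and the others to 2.01. Of 10 genes of the mesenchymal and osteoblast lineage, 3 to 8 had a peak at either gene end in a list. Among all protein-coding genes the share was 34.4% to 65.7%. The lineage genes were below it in some lists, as in wild type replicate 1 (3 of 10, against 35.1%) and FOXA2FL replicate 1 (5 of 10, against 65.7%). They were above it in others, as in FOXA2FL replicate 2 (7 of 10, against 55.3%). Of 4 leukocyte, 4 hepatocyte and 4 epithelial genes, at most 2 of each kind did.

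In each list most ribosomal protein gene starts were called, and more were called in each construct list than in the wild type of its own set. In the FOXA2 set, wild type replicate 1 called 49 of 64 starts (76.6%, Wilson 95% interval 64.9 to 85.3), against 36.3% of all gene starts. Wild type replicate 2 called 39 (60.9%, 48.7 to 71.9), against 34.8%. FOXA2FL replicate 1 called 63 (98.4%, 91.7 to 99.7), against 62.7%, and replicate 2 called 59 (92.2%, 83.0 to 96.6), against 55.1%. FOXA2dCTD replicate 1 called 51 (79.7%, 68.3 to 87.7), against 48.7%, and replicate 2 called 60 (93.8%, 85.0 to 97.5), against 63%. Both FOXA2FL values lay above both wild-type values, and the FOXA2dCTD values did as well, although FOXA2dCTD replicate 1 exceeded wild type replicate 1 by only 2 genes.

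The group means were 68.8% ± 11.05 for wild type, 95.3% ± 4.42 for FOXA2FL and 86.7% ± 9.94 for FOXA2dCTD (SD, n = 2 each). With 2 libraries on each side, an exact two-sided permutation test cannot give a p smaller than 0.33 and so cannot pass 0.05, and no difference was tested. Between the lists without mitochondrial peaks the pair was 39 (wild type) and 59 (FOXA2FL) called starts. Among the lists with such peaks it was 49 (wild type) against 63 (FOXA2FL), 51 and 60 (FOXA2dCTD).

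The wild-type list of the SOX2 set called 50 starts (78.1%, 66.6 to 86.5), against 54.7% of all gene starts. The SOX2FL list called 60 (93.8%, 85.0 to 97.5), against 57.2%. The SOX2FLFOXA2CTD list called 55 (85.9%, 75.4 to 92.4), against 52.1%. With 1 list per group there is no spread between replicates, and the intervals cover counting error only.

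Both subunits were represented in every list. Large-subunit genes were called at 24 of 39 starts in the least complete list (wild type replicate 2) and at 39 of 39 in FOXA2FL replicate 1. Small-subunit genes were called at 15 of 25 and at 24 of 25 in the same lists. The large-subunit share was above the small-subunit share in 8 lists, as in FOXA2FL replicate 2 (94.9% and 88%), and below it in SOX2FLFOXA2CTD (84.6% and 88%). No difference between the subunits was tested.

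**Figure D1:**
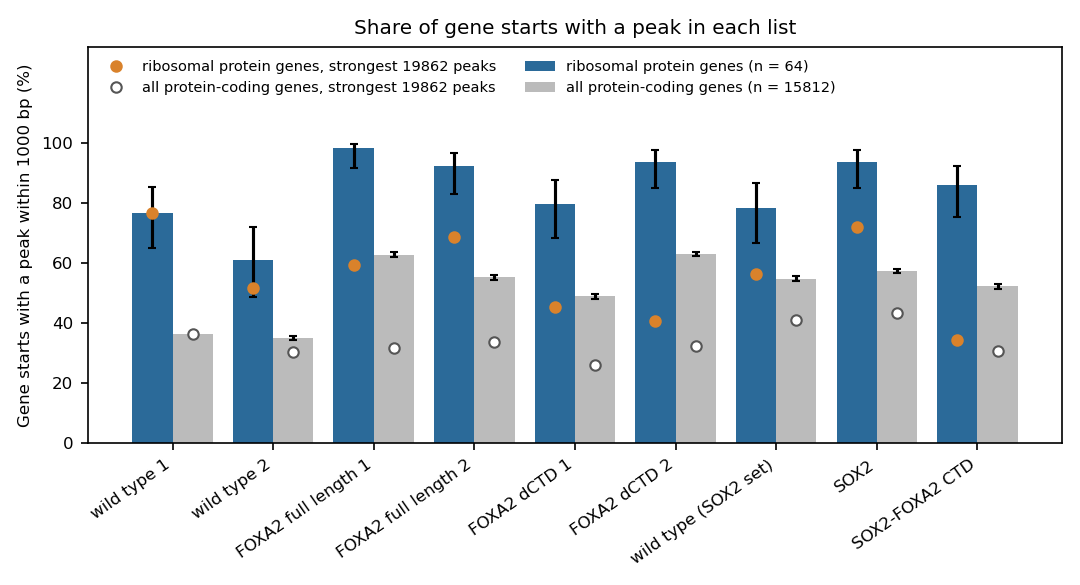
Share of gene starts with a peak within 1000 bp, in percent, in each of the 9 lists: blue bars are the 64 ribosomal protein genes, grey bars all 15812 protein-coding genes, and error bars are Wilson 95% intervals (counting error only). Circles repeat the shares with the strongest 19862 peaks of each list; the blue bars run from 60.9% to 98.4%, and the orange circles from 34.4% (SOX2FLFOXA2CTD) to 76.6% (wild type 1).

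The order of the lists changed once each was cut to the same number of peaks. With the strongest 19862 peaks by −log10 p, the lists called 49 and 33 ribosomal protein gene starts in wild type, 38 and 44 with FOXA2FL, and 29 and 26 with FOXA2dCTD, in replicate order. The shares of all gene starts were then 36.3%, 30.2%, 31.5%, 33.5%, 25.9% and 32.3%. Wild type and FOXA2FL had the same mean, and both FOXA2dCTD lists lay below both wild-type lists. For the SOX2 set the counts were 36 (wild type), 46 (SOX2FL) and 22 (SOX2FLFOXA2CTD), against 41%, 43.1% and 30.4% of all gene starts. At equal numbers the FOXA2 construct with the CTD had more called starts than the one without it, whereas SOX2 with the FOXA2 CTD had fewer than SOX2 alone. Neither difference was tested. A common lowest −log10 p of 5.43 left 46 and 39 called starts in wild type, 49 and 59 with FOXA2FL, and 39 and 39 with FOXA2dCTD. The matching shares of all gene starts were 33.5%, 34.8%, 42.4%, 55.1%, 33.1% and 44.7%.

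Peak strength was compared only within a list. The percentile of a gene start is the share of its list's peaks with a lower −log10 p than its strongest peak. Peaks tied with it were split evenly between lower and higher. The percentile is 0 for a gene start with no peak. The median over the 64 members was 50.5 and 21.99 in the wild-type lists, 90.9 and 81.9 with FOXA2FL, and 70.7 and 82.9 with FOXA2dCTD. The group means of these medians were 36.2 ± 20.1, 86.4 ± 6.39 and 76.8 ± 8.59 (SD, n = 2). For the SOX2 set the medians were 66.3 (wild type), 82.6 (SOX2FL) and 63.3 (SOX2FLFOXA2CTD). Over all gene starts the medians were 0 and 0 in wild type, 65.5 and 24.7 with FOXA2FL, and 0 and 65.3 with FOXA2dCTD. In the SOX2 set the medians over all gene starts were 30.9 (wild type), 49.7 (SOX2FL) and 14.9 (SOX2FLFOXA2CTD). SOX2FLFOXA2CTD, the longest list of that set, thus had the lowest median for members and for all gene starts. The part of list length was not tested.

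Against other promoters, ribosomal protein genes were called more often, while the strength of called members was above or below the rest depending on the list. Among the members with a peak, the median percentile was 62.3, 64.2, 91.7, 81.9, 80.7 and 83.2 in the FOXA2 set, in the order above. All called gene starts had 65.3, 64.2, 87.8, 74.4, 76.7 and 87.4. Called members were thus above in both FOXA2FL lists and FOXA2dCTD replicate 1, level in wild type replicate 2, and below in the others. In the SOX2 set the called members had 74.9, 84.8 and 70.7, each below the 79.4, 87.0 and 80.2 of all called gene starts. The median fold enrichment of called members was 5.67 and 6.55 in wild type, 5.04 and 9.55 with FOXA2FL, and 4.76 and 4.73 with FOXA2dCTD. The same medians over all called gene starts were 5.68, 6.55, 4.68, 8.52, 4.48 and 5.0.

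Each gene start was also ranked among the 15812 gene starts of its own list, in place of all its peaks. On this scale the members' medians were 76.5 and 70.2 in wild type, 74.5 and 78.8 with FOXA2FL, 71.7 and 62.7 with FOXA2dCTD, and 63.1, 66.1 and 64.1 in the wild-type, SOX2FL and SOX2FLFOXA2CTD lists. The group means were 73.4 ± 4.46, 76.6 ± 2.99 and 67.2 ± 6.36 (SD, n = 2). The FOXA2FL range overlapped that of wild type. The FOXA2dCTD range overlapped it as well. Member by member, FOXA2FL exceeded wild type at 63 of 64 starts by percentile in the list, but at 37 of 64 by rank among gene starts. FOXA2dCTD exceeded wild type at 54 and at 30 of 64. By percentile in the list, the median difference over members was 32.8 for FOXA2FL and 25.4 for FOXA2dCTD. Over all gene starts it was 13.2 and 12.6, so a rise on this scale was not limited to members. How many of all gene starts exceeded wild type was not counted. These comparisons share the wild-type lists.

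Members differed widely among themselves. Of 64, 22 were called in all 9 lists (34.4%, against 21.5% of all gene starts), 17 in 8, 11 in 7, 10 in 6, 2 in 5, 1 in 4 and 1 in 1. None was without a call in every list, against 27.3% of all gene starts. The ranks of members among gene starts correlated between pairs of lists at Spearman rho of 0.247 to 0.807 (median 0.486 over 36 pairs). For all gene starts the range was 0.668 to 0.840 (median 0.763), which includes many genes closed in every list. The highest value among members was that of wild type replicate 2 with FOXA2FL replicate 2.

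**Figure D2:**
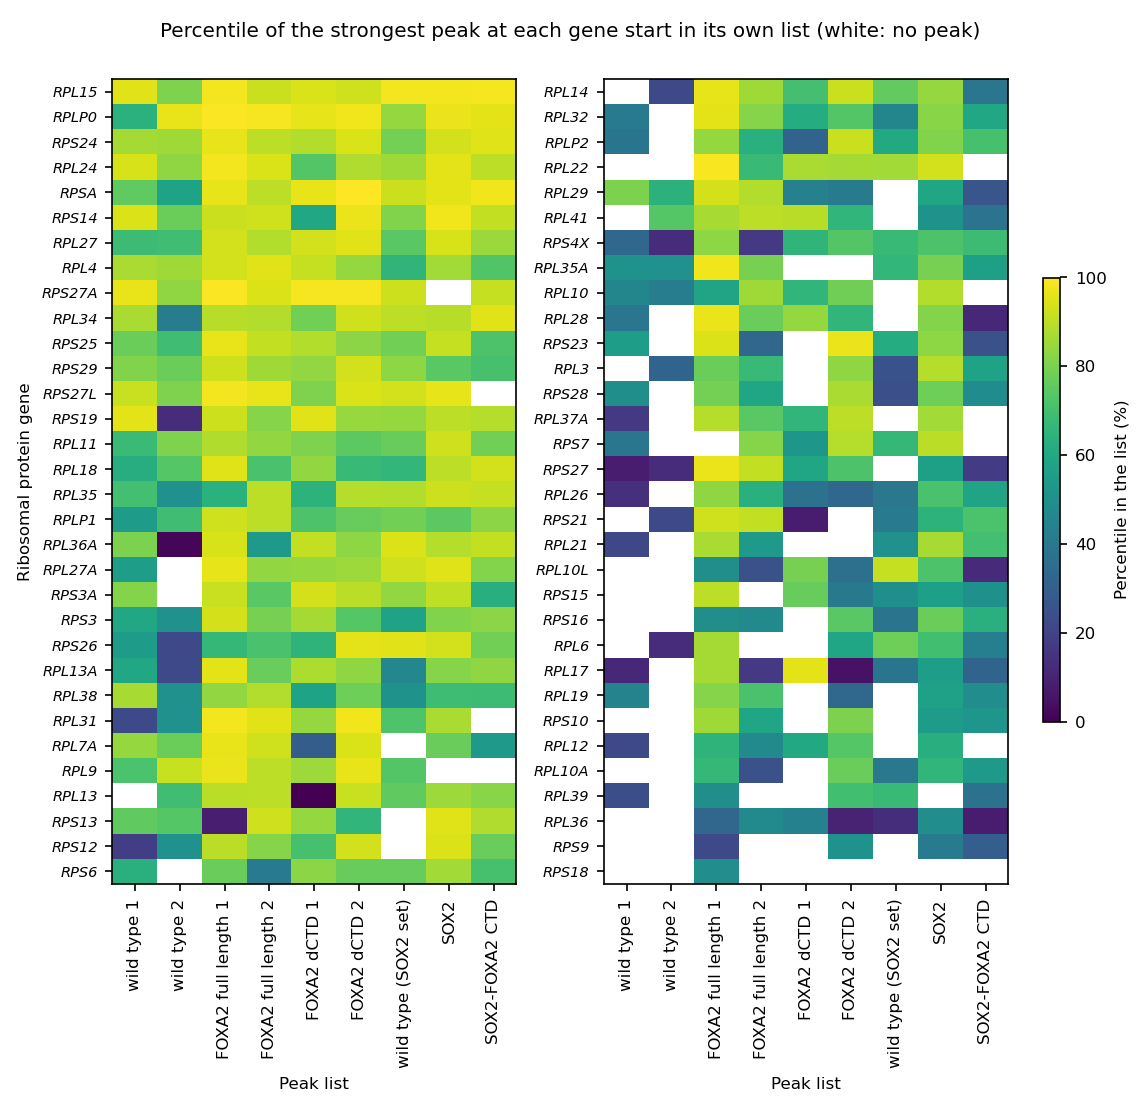
Percentile of the strongest peak within 1000 bp of each of 64 ribosomal protein gene starts (vertical axis, ordered by mean) in each of the 9 lists (horizontal axis); the colour scale runs from 0 to 100% and white marks no peak. RPL15 and RPLP0 at the top are coloured in all 9 lists, the 2 wild-type columns of the FOXA2 set hold the most white cells, and RPS18 at the bottom has a peak in 1 list.

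The members called in all 9 lists were led by RPL15, a large-subunit protein. Its percentile was 95.7 and 80.8 in wild type, 98.4 and 91.9 with FOXA2FL, 94.3 and 92.9 with FOXA2dCTD, and 98.4, 98.2 and 98.6 in the 3 lists of the SOX2 set. Its summits lay 319 to 702 bp downstream of the annotated gene start, near later starts listed 553 and 587 bp downstream. RPLP0, the core of the ribosomal stalk, ranged from 63.7 (wild type replicate 1) to 99.4 (FOXA2FL replicate 1), and its summits lay at −284 to −74 bp, upstream of the start. RPS24, a small-subunit protein mutated in some patients with Diamond-Blackfan anaemia, ranged from 79.0 to 96.3. RPL24 (mean 89.2) and RPSA (mean 89.1), whose protein is also known as the laminin receptor, followed.

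RPSA varied more than the others at the top. It stood at 75.5 and 58.0 in wild type, 96.4 and 89.9 with FOXA2FL, and 96.7 and 99.7 with FOXA2dCTD, so that neither construct group overlapped wild type. Among all gene starts its ranks were 86.3 and 81.1 in wild type, 88.2 and 87.2 with FOXA2FL, and 94.9 and 99.1 with FOXA2dCTD. On both scales FOXA2dCTD lay above FOXA2FL. Its percentiles in the SOX2 set were 92.2, 95.8 and 97.96.

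At the other end of the members called everywhere were RPS4X (mean percentile 54.7), RPL38 (70.5), RPL13A (70.8), RPS26 (71.5) and RPS3 (73.9). RPS4X, an X-linked small-subunit gene, was at 33.5 and 12.8 in wild type, 83.0 and 16.4 with FOXA2FL, and 65.3 and 73.1 with FOXA2dCTD. Its value was low in both wild-type lists and in FOXA2FL replicate 2, and FOXA2FL overlapped wild type. The stalk partners of RPLP0 were weaker than RPLP0: RPLP1 was called in 9 lists (mean 76.9) and RPLP2 in 8 (mean 58.1), missing from wild type replicate 2.

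RPS18 and RPS9, both small-subunit genes, were called least often. RPS18 (chromosome 6) had a peak only in FOXA2FL replicate 1, the longest list, with a −log10 p of 3.70, a fold enrichment of 3.31 and a percentile of 49.4. RPS9 (chromosome 19) had one in FOXA2FL replicate 1 (22.1), FOXA2dCTD replicate 2 (51.5), SOX2FL (41.2) and SOX2FLFOXA2CTD (29.8). Few of their neighbours were called either. Of the 20 gene starts nearest to RPS18, within 303 kb, 0 to 6 were called in a list, and of the 20 nearest to RPS9, within 335 kb, 1 to 6. Over all gene starts the share called ran from 34.8% to 63% between lists. RPS19 and RPL18, with 4 to 7 and 5 to 8 called neighbours of 20, were called in all 9 lists. The lists also hold peaks on alternate copies of chromosome 6 (2 to 561 per list) and of chromosome 19 (2 to 90), which were not used here. The part of these copies, or of the surrounding region, in the low counts was not tested.

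RPL36 was weak, and 9 to 14 of its 20 nearest gene starts were called. It was absent from both wild-type lists of the FOXA2 set and stood at 33.1 and 47.7 with FOXA2FL, 44.0 and 9.47 with FOXA2dCTD, and 12.9, 49.5 and 7.90 in the SOX2 set. RPL39, whose protein lines the exit tunnel of the ribosome, and RPS10 were called in 5 lists each. RPL10A, RPL12, RPL19, RPL6, RPS16, RPS15, RPL21, RPS7, RPL37A and RPL22 were called in 6. For RPL6 the annotated gene start and the start in the promoter table were 7393 bp or more apart, and in 3 of the 9 lists its nearest peak lay 8882 to 9031 bp away.

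The paralogues were called in as many lists as many canonical members. RPL10L, known for expression in testis, was absent from both wild-type lists of the FOXA2 set. It stood at 49.4 and 24.7 with FOXA2FL, 79.4 and 37.0 with FOXA2dCTD, and 91.1, 72.1 and 12.2 in the SOX2 set. The nearest other gene start of the table, that of MDGA2, lay 1023824 bp away. RPL10, from which it is copied, was called in 7 lists (mean 51.6), missing from the wild-type and SOX2FLFOXA2CTD lists of the SOX2 set. RPS27L was called in 8 lists with a mean percentile of 81.3, above RPS27 (8 lists, 46.0).

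For RPL39L and RPL3L the strand was not available. RPL39L had a peak at its higher-coordinate end in all 9 lists (mean 92.5, lowest 82.5), whereas RPL39 was called in 5 (mean 27.5). RPL3L, known from heart and skeletal muscle, had a peak at its lower-coordinate end in 9 lists and at the other end in 0. The start of another gene, MSRB1, lies 775 bp from that lower end, so a peak there cannot be assigned to RPL3L. RPL3, which lies at the catalytic centre of the large subunit, was called in 7 lists (mean 48.0).

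The 17 members without a strand included RPL23, RPL23A, RPL30, RPL37, RPL39L, RPL3L, RPL5, RPL7, RPL8, RPS15A, RPS2 and RPS20. A peak lay within 1000 bp of either gene end at 13 and 15 of them in wild type, 17 and 17 with FOXA2FL, 15 and 17 with FOXA2dCTD, and 16 in each list of the SOX2 set. Counted at either end, all 81 members gave 63 and 55 in wild type (all genes 35.1% and 34.4%), 80 and 76 with FOXA2FL (65.7% and 55.3%), and 66 and 77 with FOXA2dCTD (49.9% and 65.3%). The SOX2 set gave 67, 76 and 71 of 81 (55.5%, 58.1% and 53.5% of all genes). FOXA2FL replicate 1 had the most and wild type replicate 2 the fewest, as by gene start.

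Summits of called members lay mostly upstream of the start. The median position was −114 and −54 bp in wild type, −85 and −100 with FOXA2FL, −93 and −56.5 with FOXA2dCTD, and −74, −73.5 and −79 in the SOX2 set, where negative is upstream. For all called gene starts the medians were −61, −75, 36, −60, −41, 17, −54, −54 and −55 in the same order. Members thus lay further upstream in 8 lists and less so in wild type replicate 2. The peak covered the start itself in 37 of 49, 32 of 39, 49 of 63, 56 of 59, 41 of 51 and 51 of 60 called members of the FOXA2 set, and in all called members of the SOX2 set.

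**Figure D3:**
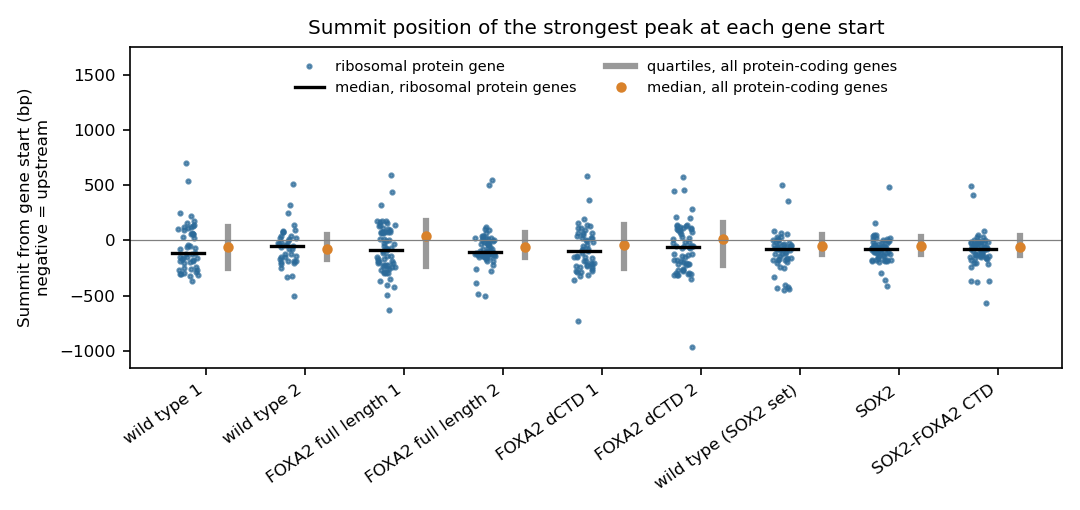
Position of the summit of the strongest peak relative to the gene start (vertical axis, bp, negative upstream) in each list. Blue points are called ribosomal protein genes with the median as a black line, and the grey bar and orange point are the quartiles and median of all called gene starts; black lines lie between −114 and −54 bp, and the highest point of each list is RPL15 or RPS27A.

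The window hardly decided the calls. The member farthest inside it was RPS13 in FOXA2FL replicate 1, whose peak edge lay 454 bp from the start. The nearest peaks outside it were those of RPL41, at 1197 bp in the wild-type list of the SOX2 set and at 1455 bp in wild type replicate 1. The extreme summits were those of RPL15 at 702 bp downstream (wild type replicate 1) and RPL12 at −961 bp, that is upstream (FOXA2dCTD replicate 2). The start of another gene lay within 1000 bp of 15 members, among them RPS27A, RPL9 and RPS18, so that their peaks may be shared. These 15 were called 14 and 9 times in wild type, and the 49 others 35 and 30 times.

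Starts that were gained (called in both libraries of a construct and in neither of its wild type) or lost (the opposite) were few in the FOXA2 set. FOXA2FL gained 6 of 64, RPL10A, RPL10L, RPL22, RPL36, RPS10 and RPS16, against 11.9% of all gene starts, and lost 0, against 0.0126%. FOXA2dCTD gained 4, RPL10L, RPL22, RPL36 and RPS15, against 8.27%, and lost 1, RPL35A, against 0.0569%. The member shares gained, 9.38% and 6.25%, were near these shares of all gene starts, of which fewer had been called in wild type. Without wild type replicate 1 the gained counts were 20 and 15 (18.7% and 14.5% of all gene starts), and without replicate 2 they were 11 and 7 (18.1% and 13.3%). Without FOXA2dCTD replicate 1 the count for FOXA2dCTD was 8 (20.9%). Both comparisons share the wild-type lists.

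RPL22, an RNA-binding large-subunit protein, had the highest percentiles among these gains. It had no peak in either wild-type list and stood at 98.9 and 67.5 with FOXA2FL and at 87.1 and 86.7 with FOXA2dCTD. The wild-type list of the SOX2 set nevertheless had RPL22 at 86.1, so the lists of the 2 wild types differed at this promoter. RPL10L and RPL36 were likewise absent from both lists of the first wild type and present in that of the second. These lists differed in length and in how they were made, and whether the cells themselves differed was not tested. RPL35A, mutated in some patients with Diamond-Blackfan anaemia, was at 51.2 and 50.5 in wild type and at 97.9 and 79.7 with FOXA2FL, and had no peak in either FOXA2dCTD list. Between the constructs, FOXA2FL had RPL21 and RPL35A that FOXA2dCTD lacked in both libraries (0.999% of all gene starts), and the opposite held for 0 (0.582%).

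In the SOX2 set, where a gain needs 1 list only, SOX2FL gained 13 starts (20.3%, against 8.11% of all gene starts). It lost 3 (4.69%, against 5.63%). The gains were RPL10, RPL12, RPL19, RPL28, RPL29, RPL37A, RPL41, RPL7A, RPS10, RPS12, RPS13, RPS27 and RPS9, and the losses RPL39, RPL9 and RPS27A. SOX2FLFOXA2CTD gained 10 (15.6%, against 6.6%) and lost 5 (7.81%, against 9.21%). These gains were RPL19, RPL28, RPL29, RPL41, RPL7A, RPS10, RPS12, RPS13, RPS27 and RPS9, and these losses RPL22, RPL31, RPL9, RPS27L and RPS7. Set against SOX2FL, the fusion had 2 further starts, RPL39 and RPS27A (3.1%, against 4.75%). It lacked 7 (10.9%, against 9.84%): RPL10, RPL12, RPL22, RPL31, RPL37A, RPS27L and RPS7. Both constructs were compared with the same wild-type list.

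Nearly all members missing from these lists had been found in the inputs and removed by the IDR threshold. At any IDR, 63, 64 and 64 of 64 starts had an entry in the wild-type, SOX2FL and SOX2FLFOXA2CTD lists, against 69%, 68.9% and 68.8% of all gene starts. The exception was RPS18 in wild type. Of the 13, 4 and 9 members with an entry above the threshold, 8, 3 and 7 had a −log10 p of at least 10 in 1 input, and none in both. Among all gene starts, 2266, 1843 and 2642 had such an entry. Of these, 1027, 842 and 967 reached 10 in at least 1 input, and 12, 8 and 1 in both, so unequal inputs were not limited to members. With all entries kept, SOX2FL and SOX2FLFOXA2CTD each gained 1 start (2.42% and 2.7% of all gene starts) and lost 0 (2.61% and 2.93%).

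RPS27A, which encodes ubiquitin joined to a ribosomal protein, shows this most plainly. Its SOX2FL inputs had −log10 p values of 3.76 and 44.4 at an IDR of 0.524, and its percentile in the other 8 lists was 83.5 to 99.6. RPL9 had 38.9 and 4.64 in the SOX2FL inputs and 4.35 and 20.6 in those of SOX2FLFOXA2CTD. In the fusion list, RPS27L had 28.0 and 3.26, RPL22 had 23.4 and 2.45, and RPL10 had 2.27 and 19.7. In the wild-type list, RPS13 had 4.61 and 25.4 and RPS10 had 24.0 and 7.69. The stronger value was in input 1 for some members and in input 2 for others within each list. The inputs' −log10 p values correlated across members at Spearman rho of 0.739, 0.680 and 0.483, and across all gene starts with an entry at 0.803, 0.829 and 0.735. These are across genes of a shared pair of libraries, and genes are not independent replicates.

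**Figure D4:**
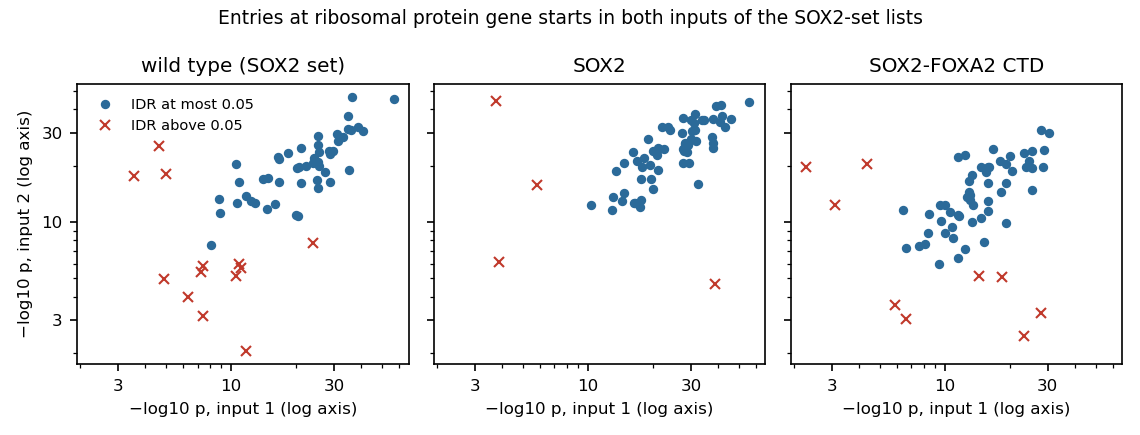
The −log10 p of the entry at each ribosomal protein gene start in input 1 (horizontal, log axis) and input 2 (vertical, log axis) of the 3 lists of the SOX2 set; blue circles passed an IDR of 0.05 and red crosses did not. The 13, 4 and 9 red crosses lie off the diagonal or near the lower left, and the SOX2FL cross at the top left is RPS27A (3.76 and 44.4).

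The other gene groups of growing cells given here were called at 50% or more of their starts in every list. Over all gene starts the share ran from 34.8% to 63%. Mitochondrial ribosomal proteins, which are encoded by other genes and lack the TOP start, were called at 43 and 46 of 69 starts in wild type, 65 and 62 with FOXA2FL, 51 and 62 with FOXA2dCTD, and 57, 62 and 60 in the SOX2 set. The share for proteasome subunits was 79.4%, 70.6% and 73.5% in FOXA2FL replicate 1, FOXA2FL replicate 2 and SOX2FL, against 98.4%, 92.2% and 93.8% for ribosomal protein genes. These lists had the widest gaps. Wild type replicate 1 had 70.6% against 76.6%, and replicate 2 had 61.8% against 60.9%. FOXA2dCTD replicate 1 had 76.5% against 79.7%, and replicate 2 had 85.3% against 93.8%. The wild type of the SOX2 set had 76.5% against 78.1%, and SOX2FLFOXA2CTD had 76.5% against 85.9%. Proteasome subunits were called at 21 (wild type replicate 2) to 29 (FOXA2dCTD replicate 2) of 34. Ribosome biogenesis genes, whose products assemble the subunits, were called at 9 (wild type replicate 2) to 15 of 18. Keratin genes, mostly closed outside epithelia, were called at 1 to 5 of 34. No difference between these lists of genes was tested.

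**Figure D5:**
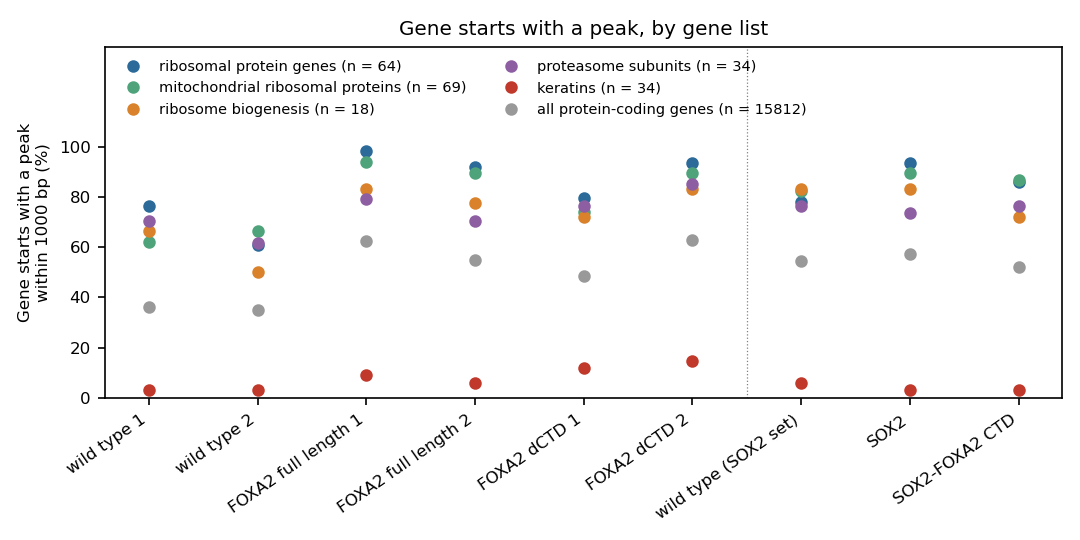
Share of gene starts with a peak within 1000 bp (vertical axis, percent) in each list for ribosomal protein genes, 4 other gene lists and all protein-coding genes; points left of the dotted line are the FOXA2 set. Mitochondrial ribosomal proteins range from 62.3% to 94.2%, close to the ribosomal protein genes, and keratins from 2.94% to 14.7%.

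Motifs of the expressed factors were rare at these promoters. The forkhead motif TGTTTAC, on either strand, occurred in 0 of 64 windows and in 2.68% of all promoters. The SOX motifs ACAATG and ACAAAG occurred in 1 (1.56%) and 4 (6.25%) members, against 7.91% and 13.0%. The ETS motif CCGGAAG was present in 22 (34.4%), against 14.1%, and the YY1 motif AAGATGGC in 6 (9.38%), against 3.86%. The SP1 motif GGGCGG was as frequent in members (56.2%) as in all promoters (58.3%). TATAA on the gene's strand was found in 9 members (14.1%), against 13.0%, among them RPLP0, RPLP1, RPLP2, RPS9 and RPS18. The median GC content of the windows was 59.3%, against 62.7%. A match of letters is a description of the window and not a bound site.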

How the data were processed

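ATAC-seq peak lists of 12 U2OS samples were used, 9 lists in all. Per the submitters' processing notes, the tools included Bowtie2 2.4.4, SAMtools 0.1.18, deepTools 2.4.1, Trim Galore, FastQC 0.10.1 and MACS2, with hg38; their settings are not given in the sources used here. The authors deposited, per the file layouts, a fold enrichment (a ratio over local background), −log10 p and −log10 q, a summit and a rounded score per peak. In the SOX2 set the deposited lists give −log10 IDR, a score restating it, and a signal and −log10 p for each of 2 inputs; only entries with a global IDR no higher than 0.05 were used. Library depth is unknown.

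Peaks on chromosomes 1–22 and X were kept. Gene starts came from RefSeq gene ends (GRCh38.p14), with the strand from the RefSeq promoter table. The strongest peak by −log10 p within 1000 bp of a start was used (Python 3.11.15, NumPy 2.4.6, pandas 2.3.3, SciPy 1.17.1); the steps were tested on simulated data. Wilson 95% intervals cover counting error only. No comparison was tested, since an exact permutation test of 2 libraries against 2 cannot go below p = 0.33.

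The members and gene lists were chosen with earlier results of these data known. Genes named were those called in the fewest lists, the 5 highest and 5 lowest by mean percentile among those called in all 9, gained or lost genes, the 4 paralogues with their parents, RPSA and the stalk proteins, the extreme summits, and some genes beside them; a few of these genes are not reported here. Alternatives covered equal numbers of peaks, a common −log10 p, other windows (500 and 2000 bp), IDR limits, ranking by fold enrichment, other start definitions and leaving out each library.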

Additional observations from a re-analysis of the deposited data

Results flagged for a closer look

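In the SOX2 set, the median percentile of ribosomal protein gene starts moved in opposite directions against the same wild-type list. It was 16.4 percentage points higher in the SOX2FL list and −2.92 points from wild type in the SOX2FLFOXA2CTD list. Over all gene starts the median percentile was 30.9 in the wild-type list, 49.7 in SOX2FL and 14.9 in SOX2FLFOXA2CTD. Each group has 1 list, so the difference was not tested. By the median of the differences member by member, both lists were above wild type. This was by 16.8 for SOX2FL (52 higher, 11 lower) and by 4.50 for SOX2FLFOXA2CTD (39 higher, 21 lower). Over all gene starts, which include many without a peak, the median of the differences was 0 for both. Ranked among gene starts, the differences of the medians were 3.01 and 1.01. Without RPL10L and RPS27L, the value for SOX2FLFOXA2CTD was 0.0724.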

How the results depend on the processing

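Of 162 values recomputed under other settings, 8 turned in direction and 23 moved by more than the limit set for them. The other 131 did not, but some of these changed in size too. For shares and median percentiles the limit was a spread. For gained and lost counts it was a ratio between the main and the recomputed count, and such counts could not turn in direction. For equal numbers of peaks, FOXA2FL minus wild type became 0 percentage points in the share called and 9.64 in the median percentile, with 2 starts gained. FOXA2dCTD minus wild type became −21.1 and −27.2, with 1 gained and 5 lost, and SOX2FLFOXA2CTD minus wild type became −21.9 in the share, with 4 gained and 18 lost. For a common −log10 p, FOXA2dCTD minus wild type became −5.47 and −4.19, with 1 gained and 2 lost. Both settings use fewer peaks of the longer lists. Gains and losses over all gene starts were not counted for them or for an IDR of 0.01. The member counts of these settings therefore have no background share beside them. For equal numbers of peaks, fewer of all gene starts were also called in SOX2FLFOXA2CTD (30.4%) than in its wild type (41%). Ranked among gene starts, a setting added after seeing the data, the median percentile differences were 3.29 (FOXA2FL), −6.19 (FOXA2dCTD), 3.01 (SOX2FL) and 1.01 (SOX2FLFOXA2CTD). Without members lacking a peak, the FOXA2FL difference was 23.6. With all entries whatever their IDR, SOX2FL minus wild type was 1.56 in the share and 6.95 in the median percentile, with 1 gained and 0 lost, and SOX2FLFOXA2CTD had 1 gained and 0 lost; at an IDR of 0.01 it had 8 lost and a difference in share of 0. For equal numbers of peaks its median difference was −18.2. Without RPL10L and RPS27L its median difference was 0.0724. The cause of the last value was not tested.

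Leaving out 1 library at a time, FOXA2FL minus wild type ranged from 18.8 to 34.4 in the share and from 35.9 to 64.4 in the median percentile, with 6 to 20 gained and 0 lost. FOXA2dCTD minus wild type ranged from 10.2 to 25.8 and from 26.3 to 54.8, with 4 to 15 gained and 1 to 2 lost. No paired analysis was possible because the results are shares and counts that come from no fitted test. List length and calling thresholds differed between groups, and their part cannot be told apart from that of the constructs.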

Other observations

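Some ribosomal protein genes have names outside the rule. FAU, which encodes a ubiquitin-like protein joined to a small-subunit protein, was called in 8 lists with a mean percentile of 68.3, and was missing from the SOX2FLFOXA2CTD list. RACK1, a scaffold protein of the small subunit, was called in 5 lists (mean 36.4), missing from every wild-type list and from SOX2FLFOXA2CTD.

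The translation elongation factors differed from each other. EEF1A1 was called in 8 lists, at percentiles of 92.2 to 99.5, and was missing from SOX2FLFOXA2CTD, whereas EEF2 was called in 3 lists, at 34.1 (FOXA2FL replicate 1), 61.8 (FOXA2dCTD replicate 2) and 29.2 (SOX2FL). NPM1, a nucleolar chaperone, was called in 8 lists (mean 59.7). FAU, RACK1, EEF1A1, EEF2 and NPM1 were thus all missing from SOX2FLFOXA2CTD at an IDR of at most 0.05. The same list called 6 of 9 starts of translation factors and other TOP mRNAs, a group that includes EEF1A1 and EEF2. It called 13 of 18 ribosome biogenesis starts, a group that includes NPM1, and 52.1% of all gene starts. Whether the named genes had entries above that threshold was not examined here.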
